A study of Mus musculus with 10 samples.

Results

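TGFbeta was given to mammary epithelial cells in which Irf1, the gene of interferon regulatory factor 1, had been lowered with siRNA, and what the cytokine still changed was read from 6 of the 10 RNA-seq libraries of the series. The 6 are all the siIrf1 libraries, chosen by their labels: 3 without TGFbeta (siIrf1 0 d) and 3 with it (siIrf1 TGFbeta). The cells are NMuMG/E9, a subclone (subclone 9) of a normal mouse mammary gland epithelial line, transfected with siRNA at 20 nM. In the TGFbeta groups recombinant human TGFbeta1 at 2 ng/ml was added on the day after transfection and stayed for 2 d, and all cells were harvested on day 3. The 0 d cells were transfected for the same 3 days and got no TGFbeta. The other 4 libraries carry a control siRNA, 2 without TGFbeta (siCtr 0 d) and 2 with it (siCtr TGFbeta), so that every group, controls included, was transfected. All results come from 1 subclone, and the siRNA lowered Irf1 without removing it. Whether the libraries of a group are separate cultures is not in the labels. The p-values therefore cover the spread among these libraries alone, which may be technical.

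TGFbeta binds a pair of receptor kinases at the cell surface, which phosphorylate Smad2 and Smad3, and these enter the nucleus with Smad4 and act on target genes together with partners such as AP-1. In epithelial cells such as NMuMG it is known for starting an epithelial-mesenchymal transition (EMT), in which cell junctions loosen, the cells lay down matrix and contractile proteins come up, while proliferation slows. Irf1 is a transcription factor induced by interferons that binds a repeated GAAA element and drives genes of antiviral defence and antigen presentation.

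To show the sequences that lie before genes of this response, promoters were taken from RefSeq (GRCm38.p6, from 250 bases before to 50 bases after each annotated start). A promoter was at hand for 10338 of the 13135 tested genes. Motifs were searched on both strands, and a stretch that matched more than 1 motif counted for each. CAGAC, the Smad element, was in 47.5% of all promoters, 52.4% of those of genes that rose with TGFbeta (55.9% of those up at least 2-fold) and 47.3% of those of genes that fell (46.3% at 2-fold or more). TGANTCA, the AP-1 element, was in 5.44% of all, 9.52% of promoters of genes that rose (11.7% at 2-fold or more) and 7.37% of those of genes that fell (8.70%). AANNGAAA, a form of the element that IRF proteins bind, was in 17.7% of all, 16.7% of promoters of genes that rose (18.2% at 2-fold or more) and 20.2% of those of genes that fell (21.7%). These shares are a description, and a match is not a shown binding site. The 250 bases before the start are printed for 3 of the genes named below that rose and hold both an AP-1 and a Smad match, 5′ to 3′ along the gene with the matches in capitals. Uts2b, the gene of a urotensin-like peptide, lies on the minus strand, as do Cldn4, a claudin of tight junctions, and Chrna1, the muscle acetylcholine receptor alpha subunit.
Uts2b (chr16:27370240-27370489): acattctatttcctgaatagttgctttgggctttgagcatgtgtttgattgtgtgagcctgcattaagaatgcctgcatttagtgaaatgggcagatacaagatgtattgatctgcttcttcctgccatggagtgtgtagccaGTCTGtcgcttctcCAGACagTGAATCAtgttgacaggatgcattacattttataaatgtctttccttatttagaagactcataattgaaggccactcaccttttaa
Cldn4 (chr5:134946935-134947184): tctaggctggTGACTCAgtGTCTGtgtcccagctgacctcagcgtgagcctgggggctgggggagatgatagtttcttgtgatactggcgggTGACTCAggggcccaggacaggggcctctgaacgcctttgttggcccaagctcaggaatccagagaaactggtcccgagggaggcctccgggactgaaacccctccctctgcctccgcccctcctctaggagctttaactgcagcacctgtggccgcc
Chrna1 (chr2:73580339-73580588): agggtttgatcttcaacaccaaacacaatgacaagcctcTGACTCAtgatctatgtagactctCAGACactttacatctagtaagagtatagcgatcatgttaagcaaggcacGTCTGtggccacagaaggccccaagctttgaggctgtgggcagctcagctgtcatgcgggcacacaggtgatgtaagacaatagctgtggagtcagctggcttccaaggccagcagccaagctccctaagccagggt
The AP-1 match of Uts2b starts 86 bases before the annotated start and its CAGAC match at 93 bases, with 2 bases between them. Cldn4 holds TGACTCA at 240 and at 158 bases before the start, and Chrna1 holds it at 211 bases. Ifit3, an interferon-stimulated gene named below, had IRF matches in this window, TTTCACTT at 156 and TTTCAGTT at 122 bases before its start. They lie on the opposite strand, where AANNGAAA reads. The Ifit3 start used is 410 bases from the annotated 5′ end of the gene. Ifit3 is given because it held a match: it was the only 1 with an IRF match among the interferon-stimulated genes searched. Not every interferon-stimulated gene named below was searched.

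The siIrf1 libraries held 31231574 to 67301646 counts, and 14880 to 15771 genes had at least 1 count in each. Values are given as CPM, read counts scaled to a common library size with TMM factors, in the order of replicates 1, 2 and 3. The siIrf1 TGFbeta replicate 2 stood apart: its log2 values correlated at 0.971 and 0.980 with those of the other TGFbeta libraries, which correlated at 0.989 with each other. The mean log2 level of the lowest GC quartile of genes, less that of the highest, was -0.39 in that library and 0.66 and 0.77 in the others, and 0.74, 0.19 and 0.93 in the siIrf1 0 d libraries. It was -1.37 to -0.46 in the siCtr libraries, below every siIrf1 library, so that siRNA and library composition cannot be told apart where the siRNAs are compared. The cells matched their epithelial label in part. Krt18, a keratin of simple epithelia, was at 3939, 3723 and 3554 CPM at 0 d and 4337, 4771 and 3191 CPM with TGFbeta, and the adhesion protein gene Cdh1 (E-cadherin) at 577 to 722 CPM in all 6 libraries. Epcam, Cldn3 and Cldn7, which most mammary luminal cells express, were at or near 0 (at most 0.0295 CPM in any siIrf1 library) and were not tested.

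Irf1 itself (Entrez gene 16362, chromosome 11, 53770014 to 53778374 in GRCm38.p6) stood at 56.4, 64.1 and 57.7 CPM at 0 d and 36.5, 46.2 and 41.0 CPM with TGFbeta in siIrf1 cells. Every siIrf1 TGFbeta library lay below every siIrf1 0 d library, and all 6 lay below the siCtr libraries, which held 148 and 129 CPM at 0 d and 106 and 112 CPM with TGFbeta. The siRNA lowered Irf1 at 0 d (log2 fold change against siCtr -1.22 ± 0.15, adjusted p = 0.000795 in edgeR) and with TGFbeta (-1.40 ± 0.15, adjusted p = 0.000348). Within siIrf1 cells Irf1 fell further with TGFbeta (log2 fold change -0.53 ± 0.14, adjusted p = 0.0211, SE, n = 3 against 3), a call that was lost without replicate 2 or 3 of siCtr TGFbeta, replicate 1, 2 or 3 of siIrf1 0 d or replicate 1 of siIrf1 TGFbeta (adjusted p = 0.0527 to 0.102). That call was also lost in a fit to the 6 siIrf1 libraries alone (log2 fold change -0.52, adjusted p = 0.0585). The interaction, here and below the log2 change with TGFbeta in siIrf1 cells minus that in siCtr cells, was not called for Irf1 (-0.18 ± 0.22, adjusted p = 0.69).

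With Irf1 low, TGFbeta still changed 2799 of 13135 tested genes at an adjusted p under 0.05 (21.3%). Of these 1523 rose (11.6% of genes tested) and 1276 fell (9.71%), and 1744 changed at least 2-fold (13.3%), 1002 upward and 742 downward. Among the lists set out by role below, 14 of 18 collagens and 16 of 22 direct TGFbeta targets rose, and 19 of 41 cell cycle genes fell, a count that became 8 without siIrf1 0 d replicate 1 or siIrf1 TGFbeta replicate 1. The median log2 fold change over all tested genes was 0.02. Each list of genes below can be read against that level and against the 21.3% of all tested genes called. After removal of a trend with gene length and GC content in each library, 4335 genes were called, 1900 up and 2435 down. The share of calls that were upward was then 43.8% in place of 54.4%. Without siIrf1 TGFbeta replicate 2 there were 3300 calls. In lists of genes below that had no call in 1 direction in edgeR, unadjusted p-values under 0.05 in that direction numbered 0 to 2, and DESeq2 called 0 or 1.

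**Figure D1:**
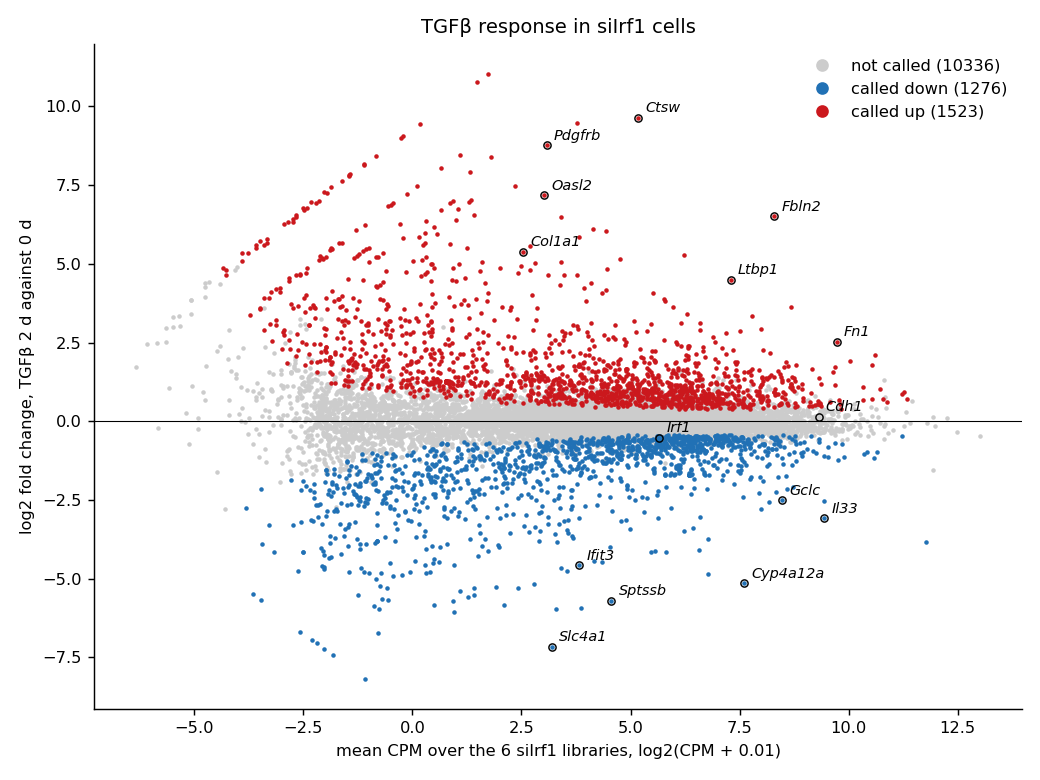
Log2 fold change with TGFbeta in siIrf1 cells (vertical axis) against mean expression (horizontal axis, log scale in CPM) for the 13135 tested genes, with the 1523 called up and 1276 called down coloured. Calls in both directions lie across the range of expression, and the highest labelled point is Ctsw, at 9.65.

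Among the receptors, 5 of 11 tested genes rose and 2 fell, with a median log2 fold change of 0.37. Acvr1, a type I receptor of the BMP branch, was at 45.3, 44.4 and 42.5 CPM at 0 d and 127, 105 and 159 CPM with TGFbeta. All its TGFbeta libraries lay above all its 0 d libraries (log2 fold change 1.56 ± 0.16, adjusted p = 8.33e-05). Tgfbr1, the type I receptor that phosphorylates Smad2 and Smad3, was at 38.8, 31.9 and 51.4 CPM at 0 d and 198, 74.4 and 166 CPM with TGFbeta. The groups did not overlap, but replicate 2 stood at less than the other TGFbeta libraries (log2 fold change 1.85 ± 0.48, adjusted p = 0.0201), and the call was lost without replicate 1 or 2 of siIrf1 0 d or replicate 1 or 3 of siIrf1 TGFbeta (adjusted p = 0.0556 to 0.0763). Acvrl1 and Eng, a BMP-type receptor and its partner known from vessels, rose by log2 2.57 and 2.04. Tgfbr3, the co-receptor betaglycan, fell from 9.67, 12.2 and 11.3 CPM to 2.83, 2.02 and 2.98 CPM (log2 fold change -2.09 ± 0.24, adjusted p = 0.000137). The ligand-binding receptor Tgfbr2 was at 305, 323 and 273 CPM at 0 d and 201, 194 and 257 CPM with TGFbeta, with every TGFbeta library below every 0 d library (log2 fold change -0.47 ± 0.14, adjusted p = 0.0433). That call was lost in the replicate block (adjusted p = 0.0621) and without replicate 1 or 3 of siCtr 0 d, replicate 2 or 3 of siCtr TGFbeta, replicate 1, 2 or 3 of siIrf1 0 d or replicate 1 or 2 of siIrf1 TGFbeta (adjusted p = 0.0503 to 0.166). The Tgfbr2 call was also lost in a fit to the 6 siIrf1 libraries alone (adjusted p = 0.0877). With another scaling of the libraries (RLE) or other filters on low counts it was lost too (adjusted p = 0.0512 to 0.0624). The 5 receptors up became 2 without siIrf1 0 d replicate 1 and 3 without siIrf1 TGFbeta replicate 1.

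Of 15 tested Smads and their regulators 8 rose and none fell (median 0.52), and those that rose were mostly inhibitors of the pathway. Pmepa1, which sequesters receptor Smads, was at 54.3, 79.5 and 44.1 CPM at 0 d and 446, 464 and 435 CPM with TGFbeta. All TGFbeta libraries lay far above all 0 d libraries (log2 fold change 2.92 ± 0.22, adjusted p = 1.10e-05). Its relative Ldlrad4 went from 4.49, 5.77 and 6.09 CPM to 39.8, 35.1 and 34.0 CPM (log2 fold change 2.73 ± 0.21, adjusted p = 1.09e-05). Smad7 (Entrez gene 17131, chromosome 18, 75367365 to 75395935), the inhibitory Smad that TGFbeta itself induces, was at 15.9, 22.3 and 17.4 CPM at 0 d and 65.8, 76.5 and 59.9 CPM with TGFbeta, with no overlap between the groups (log2 fold change 1.86 ± 0.19, adjusted p = 5.86e-05). The co-repressors Ski (log2 fold change 1.43 ± 0.16, adjusted p = 0.000118) and Skil (log2 fold change 2.35 ± 0.43, adjusted p = 0.00298) rose as well. Replicate 2 held 87.7 CPM of Skil against 229 and 191 CPM in the other TGFbeta libraries. The signalling Smads Smad2 (0.02), Smad3 (-0.13) and Smad4 (-0.17) were not called.

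Of 20 ligand, latency and antagonist genes 10 rose and 1 fell (median 0.78), among them all 4 latent TGFbeta binding protein genes, Ltbp1 to Ltbp4. Ltbp1, the latent TGFbeta binding protein that tethers the ligand to matrix, stood at 12.2, 15.7 and 11.9 CPM at 0 d. With TGFbeta it reached 293, 267 and 341 CPM, with no overlap (log2 fold change 4.50 ± 0.18, adjusted p = 5.75e-07). The ligand gene Tgfb1 itself was at 6.88, 11.7 and 4.85 CPM at 0 d and 30.5, 25.3 and 29.7 CPM with TGFbeta, again without overlap (log2 fold change 1.86 ± 0.28, adjusted p = 0.00101). Bmp1, a protease that releases latent complexes and trims procollagen, went from 35.8, 41.0 and 32.6 CPM to 265, 277 and 220.3 CPM (log2 fold change 2.80 ± 0.15, adjusted p = 1.72e-06). Fstl3, an activin antagonist, rose by log2 2.93. Tgfb3 was the gene of this list that fell, from 2.01, 2.94 and 2.53 CPM to 0.531, 0.650 and 0.812 CPM (log2 fold change -1.91 ± 0.28, adjusted p = 0.000671). Lrrc32, which holds latent TGFbeta on the cell surface, rose from 3.64, 5.84 and 3.46 CPM to 29.9, 30.3 and 24.1 CPM (log2 fold change 2.70 ± 0.24, adjusted p = 2.80e-05). In siCtr cells it went from 1.37 and 1.03 to 102 and 87.5 CPM, a larger rise (interaction -3.61 ± 0.38, adjusted p = 0.00134).

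**Figure D2:**
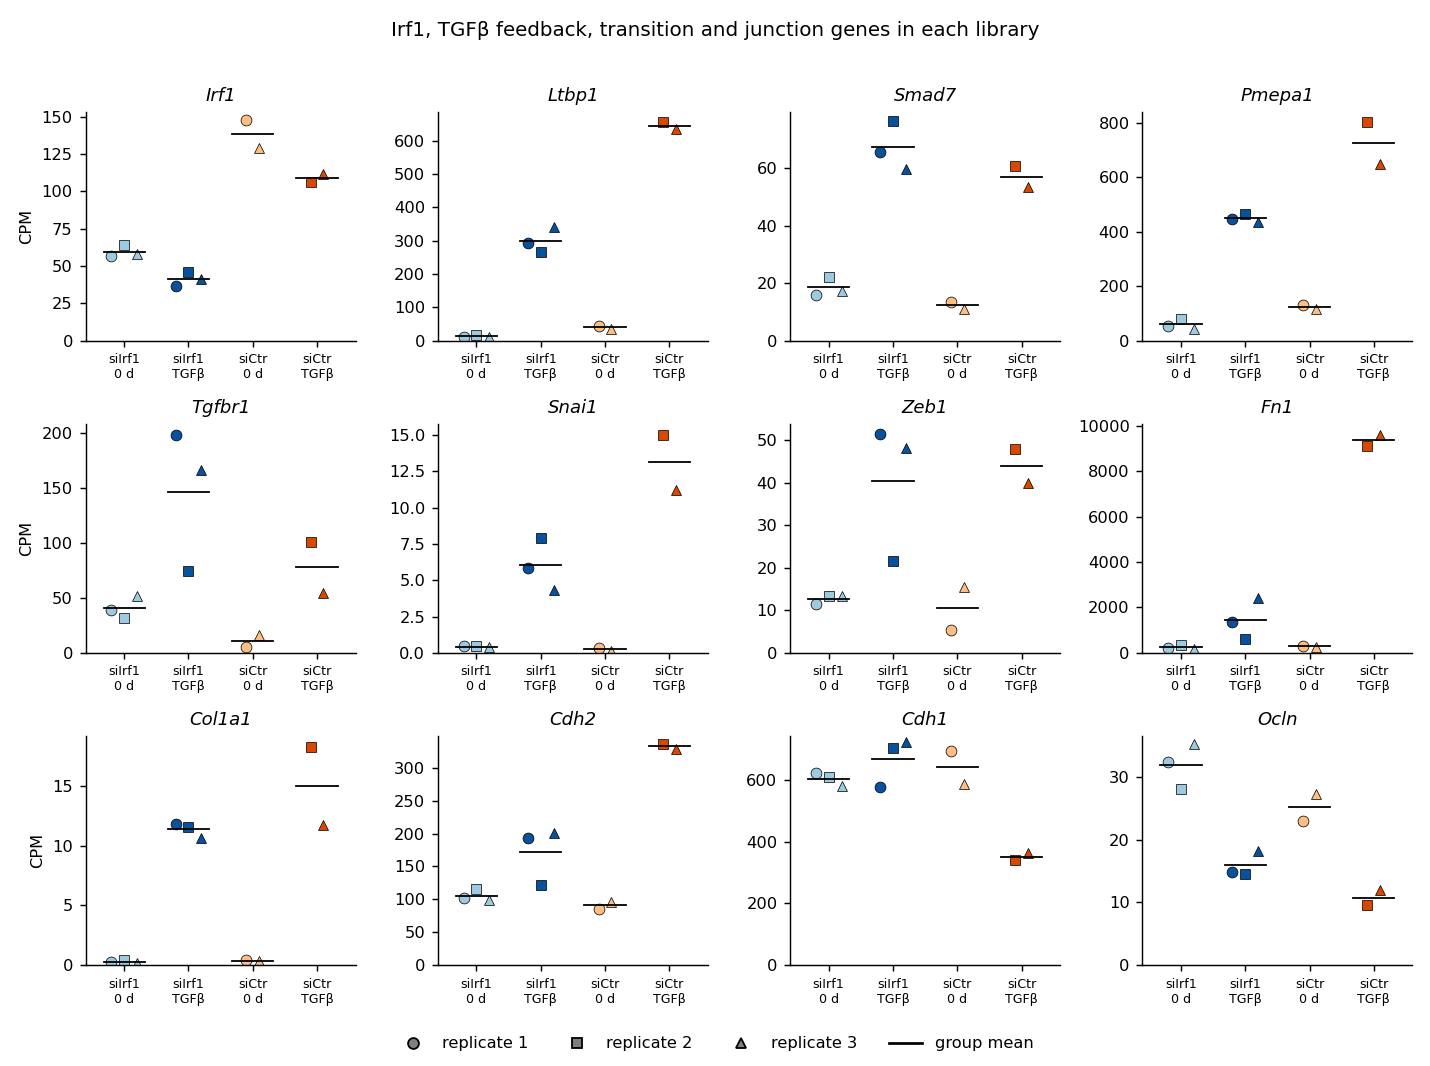
CPM of 12 genes (vertical axes linear from 0, a scale for each gene) in the 4 groups, where each point is a library and each line a group mean. Irf1 is lower in the siIrf1 groups, Ltbp1, Smad7 and Pmepa1 are higher with TGFbeta under both siRNAs, Fn1 and Cdh2 are higher with TGFbeta in siCtr than in siIrf1 cells, and Cdh1 is at 577 to 722 CPM in all siIrf1 libraries.

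Of 22 tested genes known as direct TGFbeta targets in many cell types, 16 rose and 2 fell, with a median log2 fold change of 1.49. Bhlhe40, a repressor of the clock and stress responses, went from 101, 126 and 94.2 CPM to 460.00, 479 and 503 CPM (log2 fold change 2.17 ± 0.14, adjusted p = 5.33e-06). Junb, an AP-1 subunit, was at 17.3, 27.7 and 15.3 CPM at 0 d and 159.5, 308 and 53.1 CPM with TGFbeta, with the TGFbeta libraries spread widely above the 0 d libraries (log2 fold change 3.11 ± 0.57, adjusted p = 0.00323). Rhob, a small GTPase (log2 fold change 1.81 ± 0.19, adjusted p = 7.16e-05), and Hmga2, a chromatin protein that helps to induce EMT factors (log2 fold change 1.59 ± 0.27, adjusted p = 0.00219), rose as well. The cyclin-dependent kinase inhibitors went apart: Cdkn2b (p15) went from 35.7, 35.4 and 40.1 CPM to 92.0, 113 and 86.8 CPM (log2 fold change 1.39 ± 0.15, adjusted p = 7.89e-05), whereas Cdkn1a (p21) was at 484, 527 and 491 CPM at 0 d and 311, 386 and 316 CPM with TGFbeta (log2 fold change -0.57 ± 0.15, adjusted p = 0.0223). The fall of Cdkn1a was lost without replicate 1, 2 or 3 of siIrf1 0 d or replicate 1 or 3 of siIrf1 TGFbeta (adjusted p = 0.0603 to 0.0985). Tgfbi, named for its induction by TGFbeta, fell from 0.396 to 0.792 CPM to 0.0295 to 0.159 CPM (log2 fold change -2.28 ± 0.52, adjusted p = 0.0105). Of 3 tested Id genes, BMP targets that hold back differentiation, Id2 alone was called. It fell from 338, 312 and 351 CPM to 89.3, 96.3 and 105 CPM (log2 fold change -1.78 ± 0.25, adjusted p = 0.00063). Id1 was at 18.8, 27.4 and 14.7 CPM at 0 d and 19.7, 29.5 and 15.3 CPM with TGFbeta, with overlapping groups (log2 fold change 0.08 ± 0.28, adjusted p = 0.888).

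Of 17 tested EMT transcription factors 10 rose and none fell (median 1.35). Snai1 (Entrez gene 20613, chromosome 2, 167538195 to 167542814), the Snail repressor of E-cadherin, went from 0.440, 0.452 and 0.396 CPM to 5.87, 7.94 and 4.33 CPM. No libraries overlapped (log2 fold change 3.81 ± 0.33, adjusted p = 2.52e-05). Zeb1, the zinc finger repressor of epithelial genes, was at 11.4, 13.5 and 13.3 CPM at 0 d and 51.5, 21.6 and 48.1 CPM with TGFbeta. Replicate 2 lay well below the other TGFbeta libraries but above the 0 d libraries, and the call (log2 fold change 1.66 ± 0.40, adjusted p = 0.0143) was lost without replicate 1 or 3 of siIrf1 0 d or replicate 1 of siIrf1 TGFbeta (adjusted p = 0.0502 to 0.0625). Its relative Zeb2 went from 2.01, 3.19 and 3.03 CPM to 22.1, 9.79 and 14.4 CPM (log2 fold change 2.48 ± 0.47, adjusted p = 0.00372). Foxf2, a forkhead factor of mesenchyme, rose from 9.29, 10.9 and 9.39 CPM to 71.4, 74.8 and 71.9 CPM, the closest replicates of this list (log2 fold change 2.88 ± 0.15, adjusted p = 1.35e-06). In siCtr cells it went from 23.8 and 21.4 to 59.2 and 60.2 CPM (interaction 1.48 ± 0.22, adjusted p = 0.00502), a difference lost without replicate 2 or 3 of siCtr TGFbeta (adjusted p = 0.0541 to 0.0674). Sox9 (1.62), Runx1 (1.37), Runx2 (1.35) and Ets1 (1.24) rose, and Snai2, Twist1, Twist2 and Prrx1 were at 0 or near it (at most 0.0145 CPM) and not tested.

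Of 13 mesenchymal markers 9 rose and none fell (median 0.73). Acta2, smooth muscle actin, went from 0.471, 0.430 and 0.343 CPM to 18.6, 12.5 and 9.57 CPM (log2 fold change 5.02 ± 0.36, adjusted p = 8.09e-06). Ncam1, a neural adhesion molecule that TGFbeta raises in EMT, went from 29.7, 40.6 and 31.4 CPM to 154, 134 and 156 CPM (log2 fold change 2.12 ± 0.18, adjusted p = 2.08e-05). Both rises were far above the spread of the replicates. Vim, the intermediate filament vimentin, was at 1389, 1346 and 1269.7 CPM at 0 d and 2357, 2449.7 and 1725 CPM with TGFbeta and rose less (log2 fold change 0.71 ± 0.16, adjusted p = 0.00846). Fn1 (Entrez gene 14268, chromosome 1, 71585473 to 71653280), the matrix protein fibronectin, was at 206, 359.7 and 186 CPM at 0 d and 1337, 589 and 2412 CPM with TGFbeta, the widest spread among these genes, with replicate 2 again lowest of the TGFbeta libraries (log2 fold change 2.53 ± 0.45, adjusted p = 0.00263). In siCtr cells Fn1 went from 289.6 and 269.95 to 9131 and 9615 CPM, and the interaction missed the threshold (-2.54 ± 0.68, adjusted p = 0.0752). It was called without siIrf1 TGFbeta replicate 2 (-2.16, adjusted p = 0.041) or 3 (-3.13, adjusted p = 0.0208). The Fn1 interaction was also called with DESeq2 (-2.55, adjusted p = 0.00492) and in edgeR after removal of the length and GC trend (-2.53, adjusted p = 0.033).

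Among 17 cadherins and catenins 7 rose and 1 fell (median 0.49). Cdh1 (Entrez gene 12550, chromosome 8, 106603350 to 106670247) was at 621, 608 and 581 CPM at 0 d and 577, 702 and 722 CPM with TGFbeta. Its groups overlapped, and no change was called (log2 fold change 0.15 ± 0.13, adjusted p = 0.516). In siCtr cells Cdh1 was at 694 and 586 CPM at 0 d and 339 and 363 CPM with TGFbeta, where it fell (log2 fold change -0.87 ± 0.16, adjusted p = 0.00256). The interaction was called (1.01 ± 0.21, adjusted p = 0.0262), but not in the replicate block (adjusted p = 0.0529) and not without replicate 1 of siCtr 0 d, replicate 2 or 3 of siCtr TGFbeta or replicate 1, 2 or 3 of siIrf1 0 d (adjusted p = 0.0529 to 0.236). Cdh2 (N-cadherin) was at 103, 116 and 99.2 CPM at 0 d and 193, 122 and 201 CPM with TGFbeta. Its TGFbeta libraries lay above the 0 d libraries, replicate 2 by the least (log2 fold change 0.70 ± 0.18, adjusted p = 0.0208), and the call was lost without replicate 1 or 3 of siIrf1 0 d or replicate 1 or 3 of siIrf1 TGFbeta (adjusted p = 0.0663 to 0.087). The Cdh2 call was also lost in a fit to the 6 siIrf1 libraries alone (adjusted p = 0.0501). The interaction of Cdh2 missed the threshold in edgeR (-1.17, adjusted p = 0.0549) but was called in 8 of 17 alternative fits. Cdh5, the endothelial cadherin, was at 0 in the 3 siIrf1 0 d libraries and at 1.83, 1.42 and 1.69 CPM with TGFbeta, at least 60.2-fold higher (floor of 3 counts over the group). P-cadherin, Cdh3, rose by log2 2.66 and Jup, plakoglobin, by 1.02.

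Tight junction genes moved both ways, 5 up and 5 down of 18 (median 0.12), and the 5 falls became 3 without siCtr TGFbeta replicate 2 or 3, siIrf1 0 d replicate 1, 2 or 3 or siIrf1 TGFbeta replicate 1 or 3. Ocln, the junction protein occludin, fell from 32.3, 28.0 and 35.2 CPM to 14.8, 14.6 and 18.2 CPM, with no overlap (log2 fold change -1.005 ± 0.18, adjusted p = 0.00249). Tjp3 (-2.32), Cldn15 (-1.27) and Marveld2 (-0.97), also of tight junctions, fell. Cldn4, whose promoter is printed above, went the other way, from 0.377, 0.814 and 0.264 CPM to 35.1, 42.8 and 26.3 CPM (log2 fold change 6.12 ± 0.42, adjusted p = 7.99e-06). Cldn6 rose too (log2 fold change 2.46 ± 0.37, adjusted p = 0.000925). Tjp1 (ZO-1) was at 173, 225 and 211 CPM at 0 d and 255, 129 and 315 CPM with TGFbeta, with replicate 2 below every 0 d library and the other TGFbeta libraries above them (log2 fold change 0.20 ± 0.43, adjusted p = 0.813). Of 10 desmosome genes 4 rose and 3 fell (median 0.28). The rises became 2 without siIrf1 0 d replicate 2 or 3 or siIrf1 TGFbeta replicate 1, and the falls 1 without siIrf1 0 d replicate 3. The plaque protein Ppl (periplakin) went from 214, 224 and 205 CPM to 54.6, 63.0 and 60.5 CPM (log2 fold change -1.85 ± 0.15, adjusted p = 1.54e-05). Pkp1 (plakophilin) went from 0.0942, 0.136 and 0.0264 CPM to 2.60, 2.47 and 1.93 CPM (log2 fold change 4.69 ± 0.45, adjusted p = 4.61e-05).

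Of 10 keratins 4 rose and 3 fell (median 0.76). Krt20, a keratin of gut and bladder lining, went from 102, 104 and 111 CPM to 314, 336 and 312 CPM (log2 fold change 1.60 ± 0.13, adjusted p = 2.19e-05). Krt23 went from 11.4, 10.1 and 9.68 CPM to 1.51, 2.72 and 2.05 CPM (log2 fold change -2.30 ± 0.29, adjusted p = 0.000309). The TGFbeta libraries of neither gene overlapped with those at 0 d. Of 12 epithelial transcription and splicing factors none rose and 3 fell (median -0.25): Rbm47, an RNA-binding protein (log2 fold change -1.14 ± 0.17, adjusted p = 0.000968), Tfcp2l1 (log2 fold change -0.92 ± 0.16, adjusted p = 0.00253) and Grhl1 (-0.73). Esrp1, the epithelial splicing regulator, was at 0.220, 0.181 and 0.0528 CPM at 0 d and 0.561, 0.260 and 0.421 CPM with TGFbeta (log2 fold change 1.39 ± 0.50, adjusted p = 0.079) and passed the test without siIrf1 TGFbeta replicate 2 (1.69, adjusted p = 0.036). Among 10 epithelial surface genes 1 rose and 4 fell (median -0.40). Muc1, the membrane mucin, went from 101, 117 and 88.7 CPM to 33.4, 40.6 and 43.0 CPM (log2 fold change -1.39 ± 0.16, adjusted p = 0.000155). Muc20 went from 3.92, 3.42 and 4.06 CPM to 0.945, 0.997 and 0.993 CPM (log2 fold change -1.95 ± 0.22, adjusted p = 0.000151). St14, the membrane protease matriptase, rose from 0, 0 and 0.0264 CPM, 1 count in the group, to 4.28, 4.94 and 3.49 CPM, 504-fold with a 95% counting interval of 90.2 to 19951.

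Matrix genes rose in many families. Of 18 tested collagens 14 rose and none fell, and the median log2 fold change was 2.24. Col1a1 (Entrez gene 12842, chromosome 11, 94936224 to 94953042), a chain of fibrillar collagen I, was at 0.220, 0.407 and 0.158 CPM at 0 d and 11.9, 11.6 and 10.7 CPM with TGFbeta. The TGFbeta libraries differed little from each other and lay far above the 0 d libraries (log2 fold change 5.39 ± 0.34, adjusted p = 4.03e-06). Col1a2 and Col3a1, which fibroblasts express with it, were at 0 or near it (at most 0.0264 CPM). Col7a1, the collagen of anchoring fibrils, went from 1.60, 1.81 and 1.08 CPM to 45.5, 51.2 and 31.0 CPM (log2 fold change 4.83 ± 0.28, adjusted p = 3.35e-06). Col6a1, of microfibrils, went from 2.51, 4.16 and 2.14 CPM to 23.5, 27.3 and 21.8 CPM (log2 fold change 3.04 ± 0.25, adjusted p = 2.08e-05). The basement membrane chain Col4a1 rose less, from 206, 302 and 206 CPM to 563, 693 and 589 CPM (log2 fold change 1.37 ± 0.17, adjusted p = 0.000305). Among 18 genes of collagen crosslinking and folding 10 rose and 2 fell (median 0.71). Loxl1, a lysyl oxidase that crosslinks elastin, rose (log2 fold change 5.00 ± 0.35, adjusted p = 7.17e-06), as did Colgalt1, which glycosylates collagen (log2 fold change 1.79 ± 0.15, adjusted p = 2.28e-05), and the collagen chaperone Serpinh1 (2.94), whereas Loxl2 fell (-1.77).

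Of 25 matrix glycoproteins 12 rose and 3 fell (median 1.09). Fbln2, fibulin 2 of elastic fibres, was at 7.94, 7.08 and 5.30 CPM at 0 d and 676, 613 and 564 CPM with TGFbeta, one of the most uniform large rises (log2 fold change 6.51 ± 0.21, adjusted p = 1.47e-07). The siCtr cells held 46.8 and 41.0 CPM at 0 d and 2784 and 2441 CPM with TGFbeta, so that Fbln2 was lower with siIrf1 both at 0 d (log2 -2.70 ± 0.19, adjusted p = 0.000116) and with TGFbeta (-2.08 ± 0.18, adjusted p = 0.000107). Igfbp7, a secreted binding protein, went from 251, 320.2 and 254 CPM to 804, 855 and 935 CPM (log2 fold change 1.65 ± 0.14, adjusted p = 2.24e-05). Thbs1, thrombospondin, which can release active TGFbeta, went from 431, 462 and 417 CPM to 1858, 1152 and 1933 CPM (log2 fold change 1.92 ± 0.28, adjusted p = 0.000904). Tnc, the wound matrix protein tenascin C, went from 50.5, 57.9 and 41.5 CPM to 243, 144 and 199 CPM (log2 fold change 1.97 ± 0.21, adjusted p = 9.08e-05), against 77.2 and 63.9 to 1617 and 1694 CPM in siCtr cells (interaction -2.59 ± 0.32, adjusted p = 0.00242). The basement membrane linkers Nid1 (-1.35) and Nid2 (-1.84) fell. Of 8 laminins 3 rose and 1 fell (median 0.11), with Lamb3 (log2 fold change 1.38 ± 0.17, adjusted p = 0.000259) and Lamb1 (log2 fold change 1.65 ± 0.22, adjusted p = 0.000372) up.

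Of 16 integrins, the receptors by which cells hold matrix, 7 rose and none fell (median 0.93), while 3 fell with the length and GC trend removed. Itgb3, the beta subunit of the vitronectin receptor, went from 27.3, 25.4 and 25.5 CPM to 132, 133 and 142 CPM (log2 fold change 2.38 ± 0.14, adjusted p = 3.38e-06). Itgb6, which activates latent TGFbeta, went from 15.4, 16.1 and 18.4 CPM to 98.9, 46.2 and 90.3 CPM (log2 fold change 2.24 ± 0.30, adjusted p = 0.000443). Itga5 (Entrez gene 16402, chromosome 15, 103344286 to 103366791), the fibronectin receptor alpha subunit, was at 9.61, 13.2 and 10.2 CPM at 0 d and 47.3, 40.3 and 42.5 CPM with TGFbeta, close among replicates (log2 fold change 1.98 ± 0.16, adjusted p = 1.85e-05). In siCtr cells it went from 15.1 and 16.4 to 250.2 and 270.3 CPM, a rise that was larger (interaction -2.07 ± 0.25, adjusted p = 0.00187). Of 18 matrix proteases and inhibitors 10 rose and 2 fell (median 0.93). Mmp14, the membrane collagenase, went from 84.7, 104 and 76.8 CPM to 259, 256 and 224 CPM (log2 fold change 1.48 ± 0.17, adjusted p = 0.000139). Adamts4, an aggrecan protease, went from 1.13, 1.47 and 1.504 CPM to 8.47, 9.97 and 7.70 CPM (log2 fold change 2.67 ± 0.21, adjusted p = 1.45e-05). Adamts1 (-0.69) and the plasminogen activator Plat (-0.68) fell, but 1 fall was called without either siCtr TGFbeta library or any 1 of the 6 siIrf1 libraries.

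Of 15 smooth muscle contractile genes 9 rose and none fell (median 0.98), a count that became 5 without siIrf1 0 d replicate 1 or 3. Tagln, the actin-binding protein transgelin, was at 0.471, 0.701 and 0.633 CPM at 0 d and 27.7, 20.6 and 13.2 CPM with TGFbeta (log2 fold change 5.07 ± 0.33, adjusted p = 5.69e-06). The siIrf1 0 d libraries lay above the siCtr 0 d libraries (0.0393 and 0.0303 CPM) and the siIrf1 TGFbeta libraries below the siCtr TGFbeta libraries (51.6 and 71.9 CPM), so that the rise was smaller on both counts (interaction -5.62 ± 0.73, adjusted p = 0.00323). The siCtr 0 d values of Tagln lay near the floor of counting, so the size of its interaction is uncertain. Tpm1, tropomyosin, went from 1132, 1145 and 1059.8 CPM to 2402, 2433 and 1926 CPM (log2 fold change 1.02 ± 0.14, adjusted p = 0.000426). Of 35 genes of focal adhesions and the actin skeleton 14 rose and none fell (median 0.57). Among them were the crosslinker Actn1, from 363, 456 and 325 CPM to 1313, 1176 and 1282 CPM (log2 fold change 1.72 ± 0.15, adjusted p = 2.56e-05), the talin Tln2 (log2 fold change 1.47 ± 0.15, adjusted p = 6.17e-05) and the adhesion protein Zyx (1.55). Of 23 Hippo pathway genes and YAP targets 7 rose and 1 fell (median 0.38). Amotl1, an angiomotin that binds YAP, went from 5.09, 5.84 and 4.38 CPM to 85.0, 89.9 and 83.7 CPM (log2 fold change 4.08 ± 0.17, adjusted p = 6.20e-07). Ccn2, the matricellular factor CTGF, went from 717, 709 and 584 CPM to 2369.8, 2089 and 2498 CPM (log2 fold change 1.79 ± 0.15, adjusted p = 2.56e-05). Of 18 AP-1 and immediate early genes 6 rose and 2 fell (median 0.40): Fosb went from 0.377, 0.362 and 0.501 CPM to 2.36, 1.68 and 2.05 CPM (log2 fold change 2.28 ± 0.25, adjusted p = 0.000104). The zinc finger factor Egr1 went from 8.73, 15.0 and 10.4 CPM to 3.39, 1.95 and 4.00 CPM (log2 fold change -1.88 ± 0.30, adjusted p = 0.00143).

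**Figure D3:**
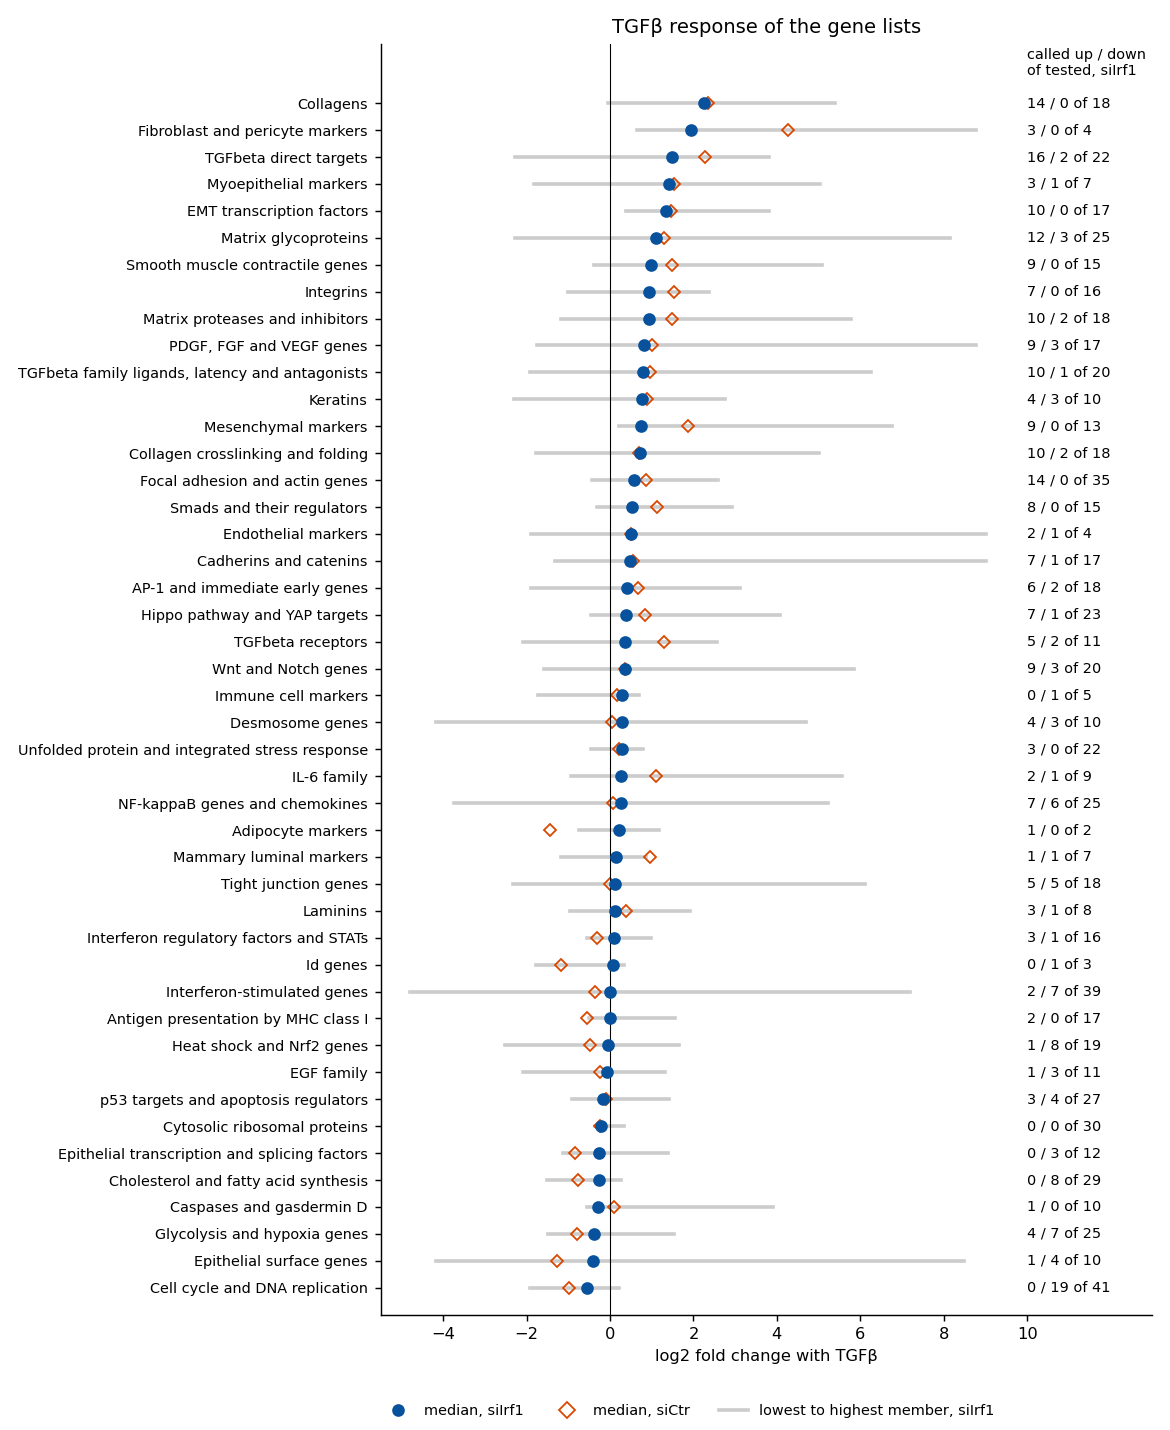
Median log2 fold change with TGFbeta for each gene list in siIrf1 cells and in siCtr cells, with a line for the range of the siIrf1 values and the number called up and down beside it. Collagens (2.24), direct targets (1.49) and EMT factors (1.35) have the highest medians among lists with 10 or more tested genes, and cell cycle genes (-0.54) the lowest.

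Genes of the interferon system are the best known targets of Irf1. Of 39 tested interferon-stimulated genes 2 rose and 7 fell (median 0.01), 23.1% of the list against 21.3% of all tested genes, and the 2 rises became 4 without siCtr 0 d replicate 1 or 3 or siIrf1 TGFbeta replicate 2. Ifit3, which binds viral RNA complexes, fell from 23.9, 24.3 and 33.0 CPM to 1.27, 0.954 and 1.23 CPM (log2 fold change -4.56 ± 0.44, adjusted p = 5.80e-05) and was at 4.56 and 15.6 CPM at 0 d and 0.484 and 0.333 CPM with TGFbeta in siCtr cells (interaction 0.02 ± 0.52, adjusted p = 0.991). Oas2, a sensor of double-stranded RNA, fell from 0.502, 0.814 and 1.32 CPM to 0.0295, 0.0434 and 0 CPM (log2 fold change -4.79 ± 0.66, adjusted p = 0.000514). The GTPase gene Gbp7 fell from 3.30, 5.52 and 5.35 CPM to 1.15, 0.694 and 0.181 CPM (log2 fold change -2.80 ± 0.48, adjusted p = 0.00219). Oasl2, an Oas-like antiviral gene, went the other way, from 0.188, 0.0679 and 0.0791 CPM at 0 d to 13.3, 12.9 and 21.9 CPM (log2 fold change 7.19 ± 0.40, adjusted p = 2.06e-06). In siCtr cells Oasl2 was at 2.40 and 3.03 CPM at 0 d and 23.6 and 22.6 CPM with TGFbeta. The siIrf1 cells thus began lower (log2 -4.63 ± 0.42, adjusted p = 0.000189) and reached a level that the test did not separate from that of siCtr cells (-0.53 ± 0.29, adjusted p = 0.253), and the rise was larger with siIrf1 (interaction 4.10 ± 0.53, adjusted p = 0.00287). Oasl2 began near the floor of counting in siIrf1 cells, so the size of this interaction is uncertain. Oas, Ifit and Gbp genes have close copies, and how reads shared between copies were counted is not given, so their values are uncertain.

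Of 17 genes of MHC class I presentation 2 rose and none fell (median 0.00), 11.8% of the list against 21.3% of all tested genes. The rises became 1 without siIrf1 0 d replicate 1 or 3 or siIrf1 TGFbeta replicate 1. H2-T23, a nonclassical class I gene with close copies, went from 3.11, 3.12 and 2.95 CPM to 8.65, 11.3 and 7.07 CPM (log2 fold change 1.56 ± 0.21, adjusted p = 0.000414). The light chain B2m was at 44.3, 44.4 and 51.1 CPM at 0 d and 119, 68.8 and 125 CPM with TGFbeta (log2 fold change 1.16 ± 0.30, adjusted p = 0.0201), a call lost without replicate 1, 2 or 3 of siIrf1 0 d or replicate 1 or 3 of siIrf1 TGFbeta (adjusted p = 0.0531 to 0.0768). Of 16 interferon regulatory factors and STATs 3 rose and 1, Irf1, fell (median 0.10). Stat3, which carries signals of the IL-6 family, went from 68.8, 68.2 and 65.4 CPM to 96.6, 112 and 105 CPM (log2 fold change 0.64 ± 0.13, adjusted p = 0.00509). The other rises were Irf2bpl, named as a relative of Irf2 binding proteins (log2 fold change 0.97 ± 0.19, adjusted p = 0.00479), and Stat2 (0.59). No interferon regulatory factor gene itself was called up. Of 25 NF-kappaB genes and chemokines 7 rose and 6 fell (median 0.26), the rises becoming 4 without siIrf1 0 d replicate 3. Secreted signals led the falls. Il33, an alarmin cytokine, fell from 1340.2, 969 and 1413 CPM to 150.2, 98.2 and 194 CPM (log2 fold change -3.07 ± 0.41, adjusted p = 0.000495). Ccl20, a chemokine for lymphocytes, fell from 218, 171 and 218 CPM to 12.8, 11.7 and 20.7 CPM (log2 fold change -3.75 ± 0.33, adjusted p = 3.28e-05). Cxcl5, which draws neutrophils, fell from 15.3, 11.4 and 12.9 CPM to 2.42, 1.11 and 1.75 CPM (log2 fold change -2.93 ± 0.31, adjusted p = 0.000101). Ccl20 was higher with siIrf1 than with siCtr at 0 d (24.9 and 53.8 CPM in siCtr) and with TGFbeta (0.782 and 0.866 CPM).

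Of 9 IL-6 family genes 2 rose and 1 fell (median 0.27, or 0.16 with a gene at 0 in 1 group set to its bound). Il11 (Entrez gene 16156, chromosome 7, 4772373 to 4782907), a cytokine that TGFbeta induces in many cells, went from 0.345, 0.158 and 0.317 CPM to 15.3, 10.3 and 12.7 CPM (log2 fold change 5.56 ± 0.29, adjusted p = 1.72e-06). The siRNAs began at levels the test did not separate, siCtr at 0.393 and 0.364 CPM (log2 difference -0.49 ± 0.40, adjusted p = 0.364), but siCtr cells reached 165 and 214 CPM, and the rise was smaller with siIrf1 (interaction -3.40 ± 0.47, adjusted p = 0.00403). The receptor Il6ra went from 3.11, 3.66 and 3.11 CPM to 11.7, 11 and 10.3 CPM (log2 fold change 1.74 ± 0.17, adjusted p = 6.23e-05), and the shared subunit Il6st fell (-0.94). Of 11 EGF family genes 1 rose and 3 fell (median -0.08): the ligand Btc went from 6.88, 4.75 and 6.52 CPM to 1.68, 0.954 and 1.72 CPM (log2 fold change -2.08 ± 0.31, adjusted p = 0.000761). The receptor inhibitor Errfi1 went from 142, 127 and 147 CPM to 54.2, 46.8 and 61.1 CPM (log2 fold change -1.36 ± 0.15, adjusted p = 0.000114). Of 17 PDGF, FGF and VEGF genes 9 rose and 3 fell (median 0.82), the rises becoming 5 and the falls 1 without siIrf1 TGFbeta replicate 1. Pdgfrb, a receptor of mesenchymal cells, went from 0.0628, 0.0226 and 0.0264 CPM to 13.8, 17.6 and 19.0 CPM (log2 fold change 8.77 ± 0.35, adjusted p = 1.16e-06). The 0 d values of Pdgfrb lay near the floor of counting, so the size of that rise is uncertain. Its ligand Pdgfb went from 150.4, 190.1 and 146 CPM to 612, 731 and 442 CPM (log2 fold change 1.88 ± 0.19, adjusted p = 7.34e-05). Of 20 Wnt and Notch genes 9 rose and 3 fell (median 0.36). The ligand Wnt7a went from 0.408, 0.656 and 0.343 CPM to 32.8, 29.8 and 20.8 CPM (log2 fold change 5.86 ± 0.33, adjusted p = 2.90e-06). The receptor Notch4 went from 0.157, 0.226 and 0.132 CPM to 5.67, 6.81 and 5.12 CPM (log2 fold change 5.05 ± 0.28, adjusted p = 2.06e-06), while Notch1 (-1.58) and Wnt4 (-1.43) fell.

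Of 41 tested cell cycle and DNA replication genes 19 fell and none rose (median -0.54). The falls were of moderate size and many were near the threshold, since 8 were called without siIrf1 0 d replicate 1 or siIrf1 TGFbeta replicate 1 and 12 without siIrf1 0 d replicate 3. Ccnd2, a cyclin of the G1 phase, went from 371, 449.5 and 431 CPM to 81.3, 122 and 131 CPM (log2 fold change -1.91 ± 0.20, adjusted p = 9.41e-05). The transcription factor E2f2 went from 21.8, 25.3 and 18.5 CPM to 6.76, 8.43 and 6.11 CPM (log2 fold change -1.62 ± 0.21, adjusted p = 0.000388). Cdk1, the kinase of mitotic entry, was at 365, 303 and 336 CPM at 0 d and 195, 209 and 201 CPM with TGFbeta, with no overlap (log2 fold change -0.73 ± 0.13, adjusted p = 0.00224). The replication helicase subunit Mcm5 went from 312, 332 and 292 CPM to 173, 223 and 147 CPM (log2 fold change -0.78 ± 0.18, adjusted p = 0.0102). Of 27 p53 targets and apoptosis regulators 3 rose and 4 fell (median -0.16), 25.9% of the list against 21.3% of all tested genes. The falls became 1 without siIrf1 0 d replicate 1, 2 or 3 or siIrf1 TGFbeta replicate 1 and 2 without siIrf1 TGFbeta replicate 3, and the rises 5 without siIrf1 TGFbeta replicate 2. The proapoptotic Bcl2 relatives Bmf, from 124, 157 and 143 CPM to 353, 435 and 336 CPM (log2 fold change 1.41 ± 0.15, adjusted p = 7.46e-05), and Bcl2l11 (Bim), from 22.6, 21.98 and 23.5 CPM to 58.1, 46.9 and 65.0 CPM (log2 fold change 1.32 ± 0.16, adjusted p = 0.000199), were among the rises. Among 10 genes of caspases and gasdermin D, Casp12 alone was called, upward (list median -0.29), 10.0% of the list against 21.3% of all tested genes. It was at 0, 0 and 0.0528 CPM at 0 d and 0.413, 0.217 and 0.331 CPM with TGFbeta, 2 counts in the group against 40, and its call was lost without replicate 1 or 2 of siIrf1 0 d (adjusted p = 0.0614 to 0.063).

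In the metabolic and Nrf2 lists most calls were falls. Of 29 genes of cholesterol and fatty acid synthesis 8 fell and none rose (median -0.27), and 3 to 5 were called without siIrf1 0 d replicate 1, 2 or 3 or siIrf1 TGFbeta replicate 1. The 8 were 27.6% of the list against 21.3% of all tested genes. Cyp51, a sterol demethylase, went from 1784, 1566 and 1919 CPM to 698, 913 and 953 CPM (log2 fold change -1.04 ± 0.17, adjusted p = 0.00148). Insig1, which responds to sterol supply, went from 92.3, 91.7 and 101 CPM to 41.5, 53.2 and 63.5 CPM (log2 fold change -0.85 ± 0.16, adjusted p = 0.00405). Of 25 glycolysis and hypoxia genes 4 rose and 7 fell (median -0.38), while 12 fell without siIrf1 TGFbeta replicate 2 and 11 in the replicate block. Ldha, lactate dehydrogenase, went from 1312, 1282 and 1343 CPM to 589.6, 704 and 499.96 CPM (log2 fold change -1.13 ± 0.15, adjusted p = 0.000396). Ankrd37, a hypoxia gene, went from 6.09, 6.06 and 6.65 CPM to 2.07, 2.50 and 2.11 CPM (log2 fold change -1.49 ± 0.19, adjusted p = 0.000304). Ddit4, an mTOR inhibitor, rose from 38.0, 44.1 and 41.3 CPM to 107, 150.4 and 99.5 CPM (log2 fold change 1.53 ± 0.17, adjusted p = 0.000127). Of 19 heat shock and Nrf2 genes 1 rose and 8 fell (median -0.06), and 5 fell without siIrf1 0 d replicate 1 or 3 or siIrf1 TGFbeta replicate 3. The members that fell were of the Nrf2 side. Gclc, the catalytic subunit that makes glutathione, went from 634, 525 and 654 CPM to 105, 98.5 and 115 CPM, close among replicates (log2 fold change -2.51 ± 0.14, adjusted p = 2.00e-06). Nqo1, a quinone reductase, went from 71.2, 49.6 and 74.2 CPM to 11.5, 12.6 and 12.9 CPM (log2 fold change -2.40 ± 0.21, adjusted p = 2.72e-05). The glutathione transferase Gsta4 went from 95.8, 84.3 and 93.2 CPM to 17.8, 25.2 and 21.2 CPM (log2 fold change -2.09 ± 0.17, adjusted p = 1.66e-05).

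Of 22 genes of the unfolded protein and integrated stress response 3 rose and none fell (median 0.28), and 5 rose without siCtr 0 d replicate 1 or 3 or siIrf1 TGFbeta replicate 2 and in the replicate block, but 1 without siIrf1 0 d replicate 1, 2 or 3. The 3 called with all libraries were 13.6% of the list against 21.3% of all tested genes. Xbp1, a factor of the unfolded protein response, went from 45.8, 45.9 and 54.4 CPM to 74.7, 85.8 and 91.0 CPM (log2 fold change 0.78 ± 0.16, adjusted p = 0.00636). Pdia4, an oxidoreductase of the endoplasmic reticulum, rose by little (log2 fold change 0.51 ± 0.14, adjusted p = 0.0247), a call lost without replicate 1, 2 or 3 of siIrf1 0 d or replicate 3 of siIrf1 TGFbeta (adjusted p = 0.0537 to 0.1). Of 30 cytosolic ribosomal protein genes none was called by edgeR or DESeq2, and 1 had an unadjusted p under 0.05 (median -0.22). Without siIrf1 TGFbeta replicate 2 edgeR called 3 of them, as falls.

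Markers of other cell types were read as whole lists. Of 12 fibroblast and pericyte markers, 5 were at 0 in all siIrf1 libraries (Col1a2, Lum, Fap, Twist2 and Thy1), and 3 of the 4 tested rose. Their summed level was 18.5 to 22.8 CPM at 0 d and 87.3 to 98.0 CPM with TGFbeta, most of it Mcam, an adhesion molecule that went from 17.6, 22.3 and 19.9 CPM to 82.7, 73.4 and 66.5 CPM (log2 fold change 1.89 ± 0.19, adjusted p = 6.78e-05). Endothelial markers, 3 of 10 at 0, summed to 4.77 to 6.03 CPM and to 11.8 to 15.3 CPM with TGFbeta, with 2 of 4 tested up (Cdh5 and Flt1) and Esam down (-1.90). Pecam1 and Kdr, which define endothelium, were at most 0.106 CPM. Flt1, a VEGF receptor, went from 4.71, 3.53 and 4.38 CPM to 12.01, 9.79 and 12.9 CPM (log2 fold change 1.46 ± 0.19, adjusted p = 0.000364). Immune cell markers, 3 of 11 at 0, summed to 65.2 to 68.0 CPM and to 72.4 to 85.8 CPM, with Csf1r and Cd14 holding most of it. Of 5 tested, Ptprc alone was called, from 0.659, 1.02 and 0.659 CPM down to 0.384, 0.188 and 0.150 CPM (log2 fold change -1.73 ± 0.50, adjusted p = 0.0316), and the call was lost without replicate 1, 2 or 3 of siIrf1 0 d or replicate 2 or 3 of siIrf1 TGFbeta (adjusted p = 0.0618 to 0.1). That 1 call was 20.0% of the tested immune list against 21.3% of all tested genes. Adipocyte markers, 1 of 6 at 0, summed to at most 4.26 CPM, and 1 of 2 tested, Cidec, rose (log2 fold change 1.17 ± 0.31, adjusted p = 0.0219), a call lost without replicate 1 or 3 of siIrf1 0 d or replicate 2 of siIrf1 TGFbeta (adjusted p = 0.0628 to 0.0979). In bulk RNA, a change in the number of cells of a type and a change in RNA per cell cannot be told apart, and the part of other cells in these results was not tested.

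Of 7 tested myoepithelial markers 3 rose and 1 fell (median 1.41). Krt14, a basal keratin, went from 0.188, 0.271 and 0.185 CPM to 1.68, 1.75 and 0.963 CPM (log2 fold change 2.74 ± 0.43, adjusted p = 0.0011), Acta2 is given above, and the basal keratin Krt5 fell (-1.83). The list summed to 13.6 to 19.7 CPM at 0 d and 14.6 to 27.2 CPM with TGFbeta. Of 7 tested luminal markers 1 rose and 1 fell (median 0.15), 28.6% of the list against 21.3% of all tested genes. Krt19, a luminal keratin, was at 2029.6, 2496 and 1869.6 CPM at 0 d and 884, 1397 and 568 CPM with TGFbeta. Its TGFbeta libraries spread widely, below all 0 d libraries (log2 fold change -1.17 ± 0.28, adjusted p = 0.013), and the call was lost without replicate 1 of siIrf1 TGFbeta (adjusted p = 0.0533). Krt7 was at 219.9, 277 and 211 CPM at 0 d and 396, 589 and 309 CPM with TGFbeta (log2 fold change 0.87 ± 0.22, adjusted p = 0.0174), a call lost without replicate 1 or 3 of siIrf1 0 d (adjusted p = 0.0739 to 0.0766). In siCtr cells Krt19 was at 2412 and 2464 CPM at 0 d and 332 and 282 CPM with TGFbeta, and Krt7 at 148 and 144 CPM at 0 d and 1049.7 and 953 CPM with TGFbeta.

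The 10 largest rises and the 10 largest falls were taken among called genes with at least 5 CPM in the higher group. Ctsw, a cathepsin protease known from cytotoxic lymphocytes, was at 0.0314, 0.136 and 0.0791 CPM at 0 d and 72.9, 75.8 and 68.2 CPM with TGFbeta (log2 fold change 9.65 ± 0.31, adjusted p = 1.47e-07). Birc7 and Tmem119 were at 0 in every siIrf1 0 d library. Birc7, an inhibitor of apoptosis, reached 6.55, 8.04 and 5.27 CPM, at least 266-fold higher, and Tmem119, a membrane protein of microglia and bone cells, reached 5.58, 7.30 and 3.76 CPM, at least 228-fold higher. Both bounds take 3 counts over the 0 d group as the floor. Lrp4, a receptor of the neuromuscular junction, went from 2 counts in the group to 7.41, 6.72 and 6.74 CPM, 393-fold with a counting interval of 109 to 3250.3. Cyp21a1, the steroid 21-hydroxylase, was at 0.0628, 0 and 0.0528 CPM at 0 d and 25.6, 34.7 and 22.2 CPM with TGFbeta (log2 fold change 9.48 ± 0.45, adjusted p = 1.16e-06). Uts2b, whose promoter is printed above, went from 0.0942, 0 and 0.0791 CPM to 12.5, 5.71 and 11.98 CPM (log2 fold change 7.47 ± 0.69, adjusted p = 4.46e-05). The serine protease Prss22 went from 0.0314, 0.0452 and 0.0791 CPM to 5.25, 6.56 and 3.82 CPM (log2 fold change 6.55 ± 0.37, adjusted p = 2.28e-06). Ctsw, Cyp21a1, Uts2b and Prss22 also began near the floor of counting, so the sizes of their rises are uncertain. The other large rises, Pdgfrb, Oasl2 and Fbln2, are given above.

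Among the 10 largest falls, Slc4a1, the anion exchanger of red cells and kidney, went from 15.2, 20.1 and 19.4 CPM to 0.118, 0.130 and 0.120 CPM (log2 fold change -7.16 ± 0.27, adjusted p = 1.07e-06). Sftpd, a lung surfactant collectin, went from 19.2, 19.0 and 20.0 CPM to 0.207, 0.448 and 0.211 CPM (log2 fold change -5.96 ± 0.34, adjusted p = 2.45e-06). In both, every TGFbeta library was under 0.5 CPM. Cst9, a cystatin, fell (log2 fold change -5.91 ± 0.38, adjusted p = 5.29e-06), as did Vnn3, a pantetheinase (log2 fold change -5.85 ± 0.29, adjusted p = 1.35e-06), and Sptssb, a subunit of sphingolipid synthesis (log2 fold change -5.70 ± 0.37, adjusted p = 5.96e-06). Cyp4a12a, a fatty acid hydroxylase, began at 466, 251 and 415 CPM and fell to 10.0, 8.08 and 13.8 CPM (log2 fold change -5.15 ± 0.45, adjusted p = 3.36e-05). The sulfotransferase Sult1d1 fell from 13.2, 11.3 and 16.0 CPM to 0.472, 0.332 and 0.331 CPM (log2 fold change -5.16 ± 0.30, adjusted p = 5.69e-06). Oas1f (log2 fold change -5.51 ± 0.45, adjusted p = 3.49e-05) and the glutathione transferases Gsta1 (log2 fold change -5.28 ± 0.34, adjusted p = 4.62e-06) and Gsta2 (log2 fold change -5.28 ± 0.36, adjusted p = 6.17e-06) complete the 10, and these 3, like Cyp4a12a, have close copies that may share reads.

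How much of the siCtr response this is was asked gene by gene. In siCtr cells 4267 of the same 13135 genes were called (32.5%), with 2 libraries in each group, and the median absolute log2 fold change was 0.57 against 0.32 in siIrf1 cells. The 2 comparisons share no library. The GC difference described above was -1.37 and -0.61 in the siCtr 0 d libraries and -0.46 in both siCtr TGFbeta libraries. The siCtr median may thus hold library composition and the noise of fewer libraries, and their part was not tested. Of the genes that rose in siIrf1 cells 1069 rose in siCtr cells too (70.2% of the siIrf1 rises and 50.4% of the siCtr rises), and 1006 fell in both (78.8% of the siIrf1 falls and 46.9% of the siCtr falls). Among genes up in both, the interaction was called as a smaller rise with siIrf1 for 81 and as a larger one for 13. Among genes down in both, it was called as a smaller fall for 148 and as a larger one for 4. In opposite directions went 25 genes, 19 up with siIrf1 and down with siCtr and 6 the reverse.

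**Figure D4:**
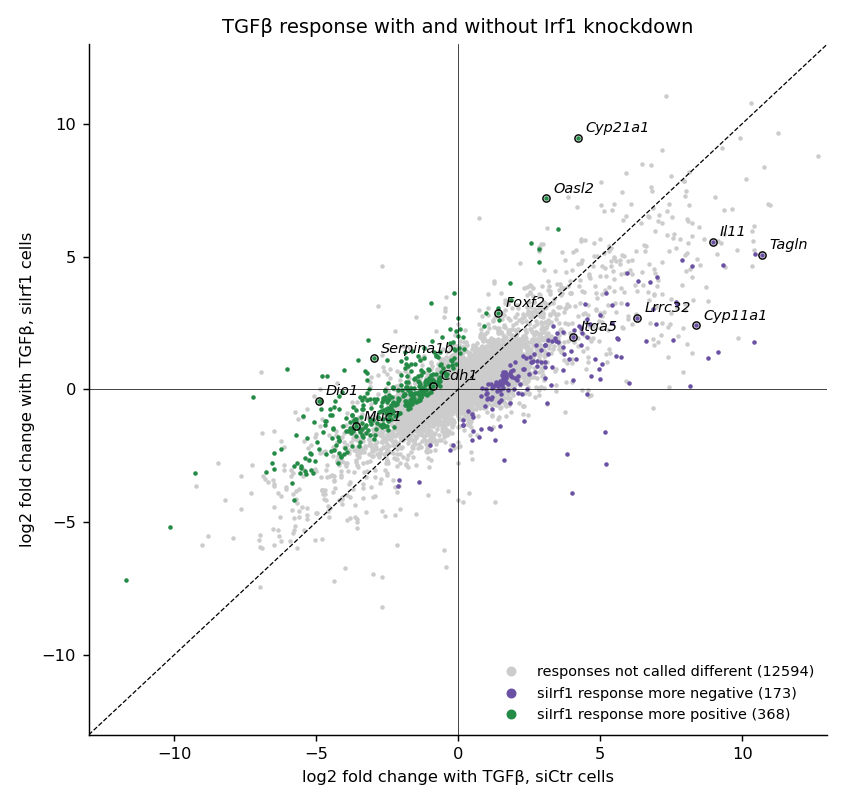
Log2 fold change with TGFbeta in siIrf1 cells (vertical axis) against that in siCtr cells (horizontal axis) for the 13135 tested genes, with genes coloured where the interaction was called. Most points lie nearer to 0 on the siIrf1 axis than on the siCtr axis, the median absolute values being 0.32 and 0.57. The siCtr values rest on 2 libraries a side and the siIrf1 values on 3.

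Over all genes the interaction was called for 541 (4.12%), more positive with siIrf1 for 368 (2.80%) and more negative for 173 (1.32%). This count hung on single libraries of 2: it was 267 without siCtr 0 d replicate 1, 1590 without siCtr 0 d replicate 3, 122 without siCtr TGFbeta replicate 2, 182 without siCtr TGFbeta replicate 3, and 272 and 279 without siIrf1 0 d replicate 1 and 3. Without siCtr 0 d replicate 3 the balance of directions turned, with 396 more positive and 1194 more negative. At 0 d the siRNAs themselves differed in 4175 genes (31.8%), and with TGFbeta in 2365 (18.0%), with the library composition that also separates them.

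The differences that kept their call without any 1 of the 10 libraries were 19 of the 46 among the genes named, and they were of several kinds. Some genes began lower with siIrf1 and came near the siCtr level with TGFbeta. Cyp21a1 was at 1.45 and 1.42 CPM in siCtr 0 d cells against 0 to 0.0628 CPM with siIrf1, and at 27.7 and 26.1 CPM with TGFbeta, near the siIrf1 values (interaction 5.26 ± 0.62, adjusted p = 0.00179). Its siIrf1 0 d values lay near the floor of counting, so the size of that interaction is uncertain. Muc1 began at 492 and 404 CPM in siCtr cells and fell to 35.2 and 38.9 CPM, the range of the siIrf1 TGFbeta libraries (interaction 2.21 ± 0.25, adjusted p = 0.0016). The transcription factor gene Gata5 was at 15.7 and 8.79 CPM at 0 d and 0.261 and 0.300 CPM with TGFbeta in siCtr cells but at 0.753, 0.724 and 0.607 CPM at 0 d and 0.413, 0.361 and 0.241 CPM with TGFbeta in siIrf1 cells (interaction 4.43 ± 0.50, adjusted p = 0.0016). Its own fall in siIrf1 cells (log2 fold change -1.02 ± 0.32, adjusted p = 0.0481) was lost without replicate 2 or 3 of siCtr TGFbeta, replicate 1, 2 or 3 of siIrf1 0 d or replicate 1, 2 or 3 of siIrf1 TGFbeta (adjusted p = 0.0633 to 0.132).

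A second kind began higher with siIrf1. Cfi, complement factor I, was at 5.02, 7.33 and 10.3 CPM at 0 d and 7.65, 8.50 and 10.8 CPM with TGFbeta in siIrf1 cells, overlapping groups with no call (log2 fold change 0.25 ± 0.29, adjusted p = 0.625), whereas siCtr cells went from 0.0393 and 0.152 to 6.59 and 6.89 CPM (interaction -5.76 ± 0.62, adjusted p = 0.00153). The siCtr 0 d values of Cfi lay near the floor of counting, so the size of its interaction is uncertain. Mcam, given above for siIrf1 cells, began at 0.864 and 1.46 CPM in siCtr cells and reached 54.5 and 62.5 CPM (interaction -3.74 ± 0.32, adjusted p = 0.000673). A further kind began at levels the test did not separate and stayed lower with TGFbeta. Chrna1, whose promoter is printed above, went from 0.0628, 0.0452 and 0.0528 CPM to 2.72, 1.39 and 1.72 CPM with siIrf1 (log2 fold change 5.10 ± 0.40, adjusted p = 1.41e-05) and from 0.0393 and 0.0303 to 46.2 and 57.4 CPM with siCtr (interaction -5.33 ± 0.93, adjusted p = 0.0115). Chrna1 thus began near the floor of counting under both siRNAs, where the test can hardly separate levels and the size of the interaction is uncertain. The phosphodiesterase gene Pde8a went from 0.157, 0.136 and 0.106 CPM to 1.71, 0.896 and 1.14 CPM with siIrf1 and to 7.50 and 8.23 CPM with siCtr (interaction -4.52 ± 0.73, adjusted p = 0.0082). Pde2a, of the same family, reached 0.531, 0.405 and 0.241 CPM with siIrf1 and 7.31 and 7.43 CPM with siCtr (interaction -4.51 ± 0.62, adjusted p = 0.00377), and its rise in siIrf1 cells (log2 fold change 1.22 ± 0.38, adjusted p = 0.0458) was lost in the replicate block (adjusted p = 0.0681) and without replicate 2 or 3 of siCtr TGFbeta, replicate 1 or 2 of siIrf1 0 d or replicate 1 or 2 of siIrf1 TGFbeta (adjusted p = 0.073 to 0.147). Il11 above also began at levels not separated and stayed lower with siIrf1. Pde8a and Pde2a, like Chrna1, began near the floor of counting under both siRNAs, so the same limit holds for them. Cyp11a1, the first enzyme of steroid synthesis, was higher with siIrf1 at 0 d and lower with TGFbeta, at 0.314, 0.633 and 0.712 CPM at 0 d and 3.19, 2.80 and 3.01 CPM with TGFbeta in siIrf1 cells against 0.0785 and 0.0606 CPM at 0 d and 20.7 and 27.1 CPM with TGFbeta in siCtr cells (interaction -5.97 ± 0.56, adjusted p = 0.00102). Its siCtr 0 d values, too, lay near the floor of counting, so the size of that interaction is uncertain.

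In other genes the level fell with TGFbeta in siCtr cells, and no fall was called in siIrf1 cells. Serpina1b, an alpha-1 antitrypsin gene with close copies, went from 237, 249.7 and 270.2 CPM up to 467, 694 and 549 CPM with siIrf1 (log2 fold change 1.18 ± 0.19, adjusted p = 0.00156), while siCtr cells went from 488 and 371 down to 46.1 and 64.9 CPM (interaction 4.13 ± 0.31, adjusted p = 0.000392). Dio1, a thyroid hormone deiodinase, was at 8.04, 8.19 and 12.4 CPM at 0 d and 5.31, 7.72 and 8.12 CPM with TGFbeta in siIrf1 cells (log2 fold change -0.43 ± 0.28, adjusted p = 0.337) and fell from 20.5 and 19.3 to 0.447 and 0.933 CPM in siCtr cells (interaction 4.47 ± 0.49, adjusted p = 0.00153). Cbln3, a cerebellin, was at 8.54, 8.89 and 7.10 CPM at 0 d and 5.25, 7.47 and 5.15 CPM with TGFbeta (log2 fold change -0.45 ± 0.22, adjusted p = 0.196) against 19.5 and 15.8 CPM at 0 d and 0.502 and 0.733 CPM with TGFbeta (interaction 4.41 ± 0.39, adjusted p = 0.000673). Rab3b, a GTPase of secretory vesicles, was at 2.07, 2.42 and 2.08 CPM at 0 d and 3.04, 4.08 and 3.79 CPM with TGFbeta (log2 fold change 0.73 ± 0.24, adjusted p = 0.0587) against 8.01 and 4.88 CPM at 0 d and 0.335 and 0.466 CPM with TGFbeta (interaction 4.76 ± 0.43, adjusted p = 0.000735). In each of these 4 genes every siIrf1 TGFbeta library lay above both siCtr TGFbeta libraries.

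**Figure D5:**
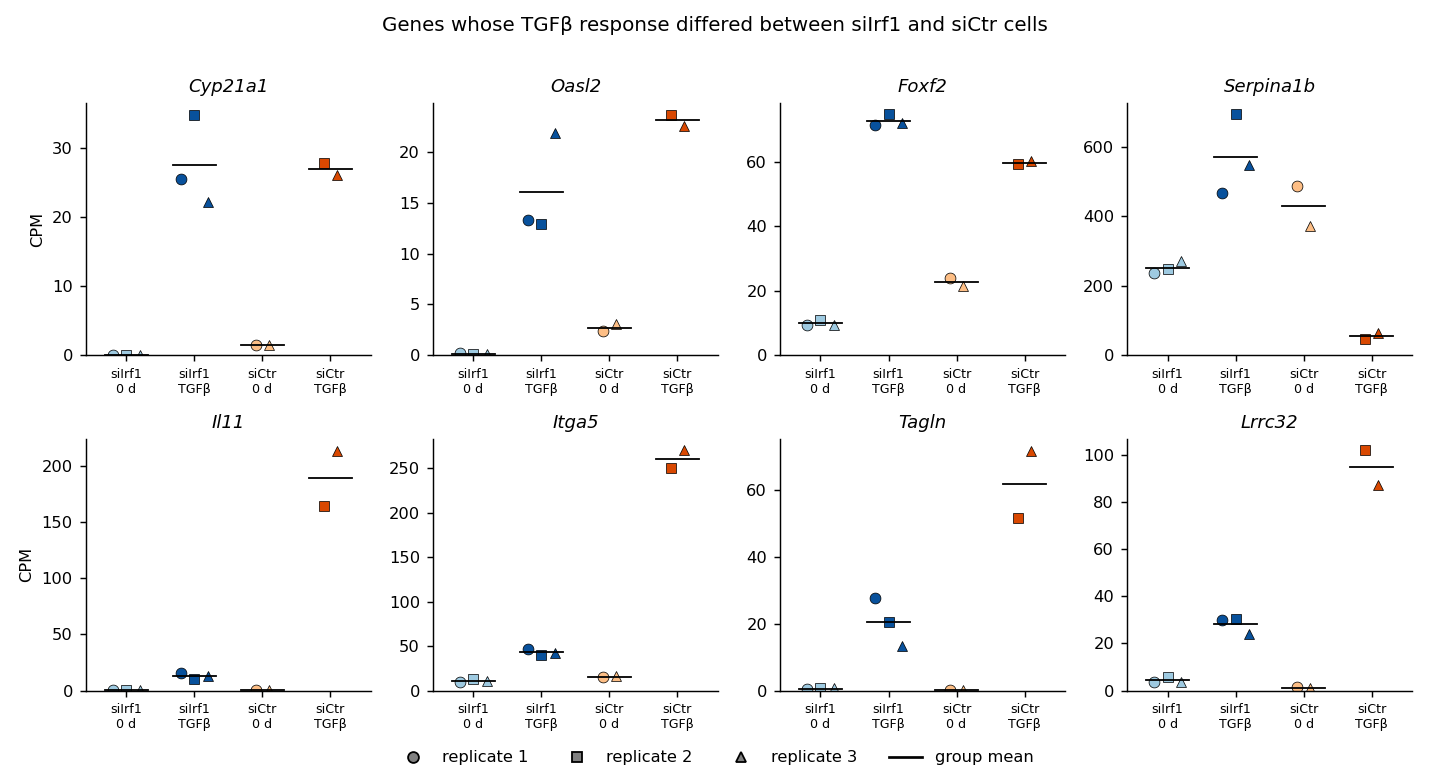
CPM (vertical axes linear from 0, a scale for each gene) of 8 genes whose TGFbeta response differed between the siRNAs, where each point is a library and each line a group mean. Cyp21a1 and Oasl2 start lower with siIrf1 and reach the range of siCtr cells or near it, Il11, Itga5, Tagln and Lrrc32 reach less with siIrf1 and TGFbeta, and Serpina1b rises with siIrf1 where it falls with siCtr.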

How the data were processed

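Total RNA was taken with a miRNeasy kit and made into libraries with a TruSeq Stranded kit, per the labels' protocols. The authors deposited 1 table of read counts, whole numbers for each gene and library, per the file headers. Reads were aligned with STAR to mm10 (GRCm38), per the submitters' processing notes. Not given in the sources used here is how reads were counted, strand included. Close copies, and overlapping genes on opposite strands, may thus share or lose reads.

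Of 24454 genes named by Entrez identifiers, 24374 were matched to symbols in RefSeq (GRCm38.p6), 7 in GENCODE and 73 in neither. Libraries held 27547649 to 67301646 counts, 0.211 to 1.50% of them in unmatched genes. All 10 libraries entered 1 model in R 4.3.3 with edgeR 4.0.16 (TMM, filterByExpr, robust quasi-likelihood F test). It had 4 group terms, 13135 genes and 6 residual degrees of freedom. The median prior was 4.15 degrees, with a biological coefficient of variation of 0.225. Benjamini-Hochberg adjustment ran over all tested genes, with calls under 0.05. The SE is the absolute log2 fold change over the root of F. Where a group held only a few counts, this SE can be smaller than the counting error, and the size of the change is uncertain. Bounds take 3 counts over a group at 0 as the floor, and 1 to 3 counts got a 95% exact binomial interval. Floors and intervals cover counting error only. Replicates of a group differed beyond counting noise (chi-square over degrees of freedom of 25.4 to 321). On simulated data of 12893 genes, the TGFbeta test in siIrf1 cells recovered 69.1% of changes of log2 1 and 98.0% of changes of log2 2. The interaction test recovered 9.28% and 83.0%. The simulation gave all genes 1 spread and no GC trend, and only 97 genes changed by log2 1 and 100 by log2 2. Real libraries differ from that setting, so these shares need not hold for them.

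Same-numbered siIrf1 libraries deviated together from their group means (correlations of 0.136, 0.448 and 0.302). Pairs with different numbers lay at -0.423 to 0.118, except for 0.28 between 0 d replicate 3 and TGFbeta replicate 1, so replicates 1 and 3 are poorly told apart. The titles also carry a code, e2, e3 or e4, that goes with the number and is not explained. Same numbers were treated as pairs in an alternative fit with a replicate block, a pairing that rests on the data since the labels do not say what a number marks. Further alternatives were RLE size factors, other filters on low counts, DESeq2 1.42.0, each library left out, a length and GC trend removed per library, and the 6 siIrf1 libraries alone.

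The members and lists were chosen with earlier results of these data known. Named genes are Irf1, a fixed set of EMT, junction and target genes, up to 2 called members of each list with the smallest adjusted p, and the 10 largest rises and falls among called genes with 5 CPM or more in the higher group and no overlap. The 8 largest interaction values in each direction were added. Tgfbr1, Tgfbr2, Ski, Skil, Tgfb1, Tgfb3, Lrrc32, Thbs1, Junb, Klf10, Hmga2, Rhob, Tsc22d1, Cdkn1a, Cdkn2b, Tgfbi, Col4a1, Col6a1, Col4a4, Col15a1, Tnc, Itgb6, Mylk, Tpm1, Il33, Ldha, Cdk1, Mcm5, Nqo1, Oas2, Gbp7, Muc1 and Mmp14 and genes given by a log2 fold change alone were chosen after their values were seen. Results of some genes are not reported here.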

Additional observations from a re-analysis of the deposited data

Results flagged for a closer look

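For 46 of the genes named, the log2 change with TGFbeta in siIrf1 cells differed from that in siCtr cells by a test of the difference (edgeR interaction, adjusted p under 0.05). Values below are the siIrf1 less the siCtr response on the log2 scale. 19 of these calls held without each of the 10 libraries. Among those the difference was positive for Cyp21a1 (5.26), Oasl2 (4.10), Rab3b (4.76), Dio1 (4.47), Gata5 (4.43), Cbln3 (4.41), Serpina1b (4.13) and Muc1 (2.21). It was negative for Cyp11a1 (-5.97), Cfi (-5.76), Tagln (-5.62), Chrna1 (-5.33), Pde8a (-4.52), Pde2a (-4.51), Itga5 (-2.07), Il11 (-3.40), Mcam (-3.74), Lrrc32 (-3.61) and Tnc (-2.59).

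The other 27 were lost without at least 1 library. Leaving out siCtr libraries ended 27 (TGFbeta replicate 2), 24 (TGFbeta replicate 3), 20 (0 d replicate 1) and 2 (0 d replicate 3) of the calls. Leaving out 1 siIrf1 library ended 4 to 16. Each gene follows with its difference over all libraries and its highest adjusted p among the left-out libraries. That p came without siCtr TGFbeta replicate 2 for Slc4a1 (4.54, adjusted p = 0.457), Sult1d1 (4.97, adjusted p = 0.334), Foxf2 (1.48, adjusted p = 0.0674), Krt23 (2.16, adjusted p = 0.253), Adamts4 (-1.87, adjusted p = 0.0729) and H2-T23 (1.51, adjusted p = 0.197). It came in the same way for E2f2 (1.83, adjusted p = 0.124), Cidec (2.36, adjusted p = 0.221), Krt7 (-1.91, adjusted p = 0.082), Cdh1 (1.01, adjusted p = 0.236), Tgfb3 (-2.39, adjusted p = 0.116) and Klf10 (-1.20, adjusted p = 0.217). It came in the same way for Hmga2 (-2.11, adjusted p = 0.113), Rhob (-1.49, adjusted p = 0.0932), Mylk (2.04, adjusted p = 0.0548), Tpm1 (-0.97, adjusted p = 0.113) and Nqo1 (1.81, adjusted p = 0.127). That p came without siCtr TGFbeta replicate 3 for Cdh13 (2.01, adjusted p = 0.0922), Ppl (1.11, adjusted p = 0.207), Rbm47 (1.31, adjusted p = 0.199), Itgb3 (-0.96, adjusted p = 0.161), Krt19 (1.82, adjusted p = 0.225) and Tsc22d1 (-0.94, adjusted p = 0.168). It came in the same way for Col4a4 (1.90, adjusted p = 0.0922) and Col15a1 (1.65, adjusted p = 0.131). That p came without siIrf1 0 d replicate 2 for Pkp1 (-4.64, adjusted p = 0.109) and Asic1 (-3.83, adjusted p = 0.124). In the replicate block the call was lost for Sult1d1 (adjusted p = 0.0783), Asic1 (adjusted p = 0.106), Krt23 (adjusted p = 0.0668), Cdh1 (adjusted p = 0.0529), Klf10 (adjusted p = 0.0589) and Tsc22d1 (adjusted p = 0.0526). Slc4a1 and Sult1d1 had 0 counts in both siCtr TGFbeta libraries, so their fitted differences depend on the prior count and are no bound. Tagln, Chrna1, Cfi, Cyp11a1, Pde8a and Pde2a began near the floor of counting in siCtr cells, and Cyp21a1 and Oasl2 in siIrf1 cells. The size of the differences of these genes is therefore uncertain. The siRNA and the GC composition of the libraries cannot be told apart in any of the differences above.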

How the results depend on the processing

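The number of genes called with TGFbeta in siIrf1 cells was 2110 to 3449 with RLE size factors, other filters on low counts, DESeq2 or the 6 siIrf1 libraries alone, and 1957 to 3300 with each library left out in turn. With the replicate block it was 3046, and 3141 in the 6 libraries alone. Removing the length and GC trend gave 4335 calls, 2435 of them down, and with the replicate block as well 4295, 2422 of them down. The cause was not tested. Added to the main fit, the replicate block ended no other call of a named gene than those given with its p above. In the 6 siIrf1 libraries alone, the block ended the siIrf1 calls of Cdh2 (adjusted p = 0.0657) and Tgfbr2 (adjusted p = 0.0895). Without the block, those 6 libraries lost the calls of Irf1, Cdh2, Gata5 and Tgfbr2 (adjusted p = 0.0501 to 0.0877). With trend removal and block, the siIrf1 calls of Mylk, Pde2a and Tsc22d1 were lost (adjusted p = 0.083 to 0.423). The interaction count of 541 became 1171 with DESeq2, 1234 with the trend removed and 900 with the trend removed and the replicate block, and ranged from 122 to 1590 with single libraries left out. The siCtr count of 4267 ranged from 2297 to 5159 with single libraries left out. Where a left-out library leaves 1 in a siCtr group, that library is assumed to vary like the others. Irf1 stayed lower with siIrf1, at 0 d and with TGFbeta, under every alternative run. Of 151 calls of named genes in siIrf1 cells 129 held without each of the 10 libraries. The simulation had the depth and number of these libraries, but 1 spread for all genes and few changed genes. There the interaction test recovered 9.28% of differences of log2 1. Within the lists, removing the trend moved the falls of cholesterol synthesis from 8 to 15, of glycolysis and hypoxia from 7 to 15 (11 with DESeq2 or the replicate block), of p53 targets from 4 to 10, of EGF family genes and of matrix glycoproteins from 3 to 5, of integrins and of caspases from 0 to 3, of focal adhesion, MHC class I and unfolded protein response genes from 0 to 2, of Hippo genes from 1 to 3, of IL-6 family genes from 1 to 2, and of ligands, of laminins and of interferon regulatory factors and STATs from 1 to 4. It moved the rises of the unfolded protein response from 3 to 7 (5 with DESeq2, RLE size factors or the replicate block), and of interferon-stimulated and of MHC class I genes from 2 to 4. The stricter filter, or the 6 libraries alone, moved the falls of tight junction genes from 5 to 3 and the rises of desmosome genes from 4 to 2, and the stricter filter moved the falls of epithelial surface genes from 4 to 2.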
